A study of Mus musculus with 8 samples.

Results

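The acute phase and IL-6 response genes are a set of 31 genes named for their role. They code for plasma proteins that the liver secretes during inflammation, for the receptors and the kinase that carry the interleukin-6 (IL-6), oncostatin M and interleukin-1 signals, and for the transcription regulators that act below these receptors. The genes were taken from the arrays by gene symbol, with no threshold on a measured value. The list itself was drawn up with earlier results of these data known. At least 1 feature (a spot of probe DNA) was found for 30 of the 31 genes, with 42 features among the 45220 of the array. The only filter asked for 3 values per group; all 30 passed it and stand among 20476 genes tested. C3 was not analysed here.

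Kidney RNA of male 129/SvJ mice was measured on 8 two-colour arrays. SDHD-ESR mice (SdhD flox/- with Cre-ER, a recombinase that tamoxifen switches on) filled 4 arrays and lose their remaining SdhD allele after the drug. Their littermates with 1 null and 1 floxed allele and no Cre, called +/-, filled the other 4. Pooled RNA of 8 +/+ mice, which were SdhD flox/+ without Cre, served as the common reference. RNA of 2 mice went onto each array, or 8 mice per test group. Tamoxifen was given to every mouse, pool included, at 100 µg/g a day for 4 days from 9 weeks of age, and kidneys were taken 1 week after it began. Because the controls carry no Cre, its presence and the loss of SdhD cannot be told apart. The promoter that drives Cre is not given in the sources used here, and the recombinase also acts in the liver, so the mice do not lose SdhD in the kidney alone.

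In the acute phase response, IL-6 and related cytokines bind a receptor that signals through the shared chain gp130. Janus kinases then phosphorylate STAT3, which enters the nucleus and acts there with C/EBP proteins and NF-kappa B on the genes of serum amyloid A, fibrinogen, haptoglobin, hepcidin and other secreted proteins. Hepatocytes make most of the circulating proteins, but kidney tubule cells can express fibrinogen chains, serum amyloid A3 and haptoglobin, and fibrinogen chains in particular are known to be induced in the injured kidney. Messenger RNA in a piece of kidney can come from tubule cells, from resident or passing leukocytes, or from RNA of other organs carried along with the tissue. In such a bulk sample, a change in the number of cells of a type and a change in RNA per cell cannot be told apart.

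Each value is a log2 ratio of test RNA to the +/+ pool, relative to the median of all features on its array. A value of 1 is thus a doubling of a gene's own pool level relative to the median feature, and values do not rank 1 gene's abundance against another's. The base of the logarithm is not given in the sources used here and was taken as 2, so folds and shares of the pool rest on that base. The values of 4 arrays are always given for replicates 1 to 4, of which replicates 1 and 2 were on slide 1 and replicates 3 and 4 on slide 2. The sign of all values was turned against the deposited table, because Sdhd, the deleted gene, stood there above the pool on all 8 arrays. The direction is therefore likely, and not settled, because no array had its dyes swapped. The study's lists of most changed genes run in the direction used here for members such as Fga, Fgb and Saa3, whereas its values for Pdk1 and Vegf, given apart, run the other way. With the sign as deposited, every difference and every level relative to the pool turns round: the 11 members described below as higher in SDHD-ESR would be lower, and Saa2 would stand at 9.00-fold of the pool in SDHD-ESR and 50.2-fold in +/-. With the sign used here, Sdhd was -4.26, -3.65, -5.04 and -3.25 in SDHD-ESR, against -0.79, -0.40, -0.92 and -0.93 in +/-, which is 6.03% and 59.0% of the pool at the mean. The difference of -3.29 ± 0.37 (SE) had no overlap between groups and an adjusted p of 0.105 (limma). Array medians before centring ran between -0.06 and 0.94 in SDHD-ESR and between -0.19 and 0.41 in +/-, with the slide 2 arrays highest in both groups. Because all values are ratios to the pool, they do not show which tissue markers were near background, and the kidney origin was not checked in that way.

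Set against +/- kidneys, 23 of the 30 genes averaged higher in SDHD-ESR and 7 lower, beside 10754 higher and 9722 lower of all 20476 genes. At an unadjusted p of 0.05, 11 members were higher, against 4.00% of all genes, and 0 were lower, against 3.80% of all genes (limma). The 11 were Saa1, Saa2, Fga, Fgb, Hp, Hamp, Itih4, Osmr, Stat3, Cebpd and Nfkbia. None passed the adjustment over all genes, which only 0.0147% of genes did, and the smallest adjusted p of a member was 0.373, for Saa2. For 6 members (Saa1, Saa2, Fga, Fgb, Stat3 and Osmr) all SDHD-ESR arrays lay above all +/- arrays, as in 2.89% of all genes, and for 0 members they lay below, as in 2.80% of all genes. For each of the 6 the exact permutation test gave a two-sided p of 0.0286, the smallest that 4 against 4 arrays allow. The median difference of the members was 0.39 on the log2 scale, beside 0.01 over all genes. The members were chosen with earlier results of these data known. The study's own list of functions predicted to be affected in these kidneys names some of them, such as Fga, Stat3 and Cebpd. The counts and the median therefore describe the list and do not test it. The count of 11 was 6 without SDHD-ESR replicate 1, 5 without SDHD-ESR replicate 2, 7 without +/- replicate 1, and 6 without +/- replicate 2 or replicate 4. By the methods' t-test it was 7, with 0 after Benjamini-Hochberg adjustment.

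**Figure D1:**
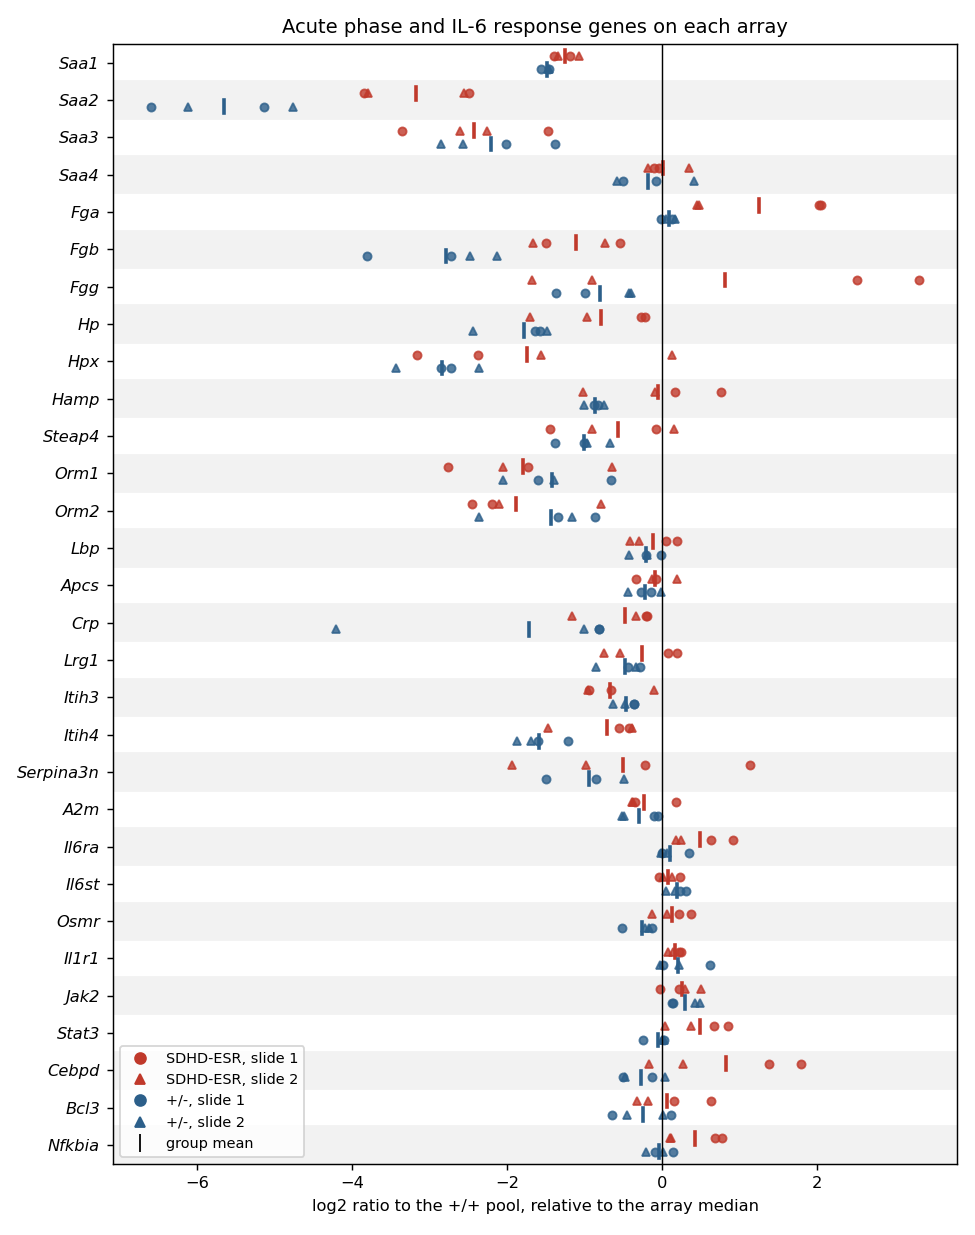
Log2 ratio to the +/+ pool, relative to the array median, of the 30 measured genes on each array (x axis), with SDHD-ESR above +/- for each gene. Circles are arrays of slide 1, triangles arrays of slide 2, and vertical bars group means (n = 4 arrays, 3 for Serpina3n in +/-); Saa2, Hpx and Fgb lie farthest below the pool in +/-, and the SDHD-ESR arrays of slide 1 stand apart for Fga, Fgg and Cebpd.

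Serum amyloid A proteins bind to high-density lipoprotein, and Saa1 and Saa2 are the main acute phase forms of the liver. Saa2 had the largest difference of the set. Its log2 ratios were -2.50, -3.84, -3.79 and -2.56 in SDHD-ESR, against -5.13, -6.59, -4.76 and -6.11 in +/-. Every +/- array lay below every SDHD-ESR array, and all 8 lay far below the pool in the likely direction. At the mean, SDHD-ESR kidneys held 11.1% of the pool's Saa2 and +/- kidneys 1.99%, a difference of 2.48 ± 0.51 (SE), or 5.58-fold (unadjusted p = 0.00148, adjusted p = 0.373, limma). The difference was like in size on both slides, at 2.69 on slide 1 and 2.26 on slide 2.

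Saa1 moved over a much narrower range. Its log2 ratios were -1.19, -1.39, -1.35 and -1.07 in SDHD-ESR, against -1.56, -1.46, -1.47 and -1.46 in +/-. The groups did not overlap, but the nearest arrays lay close together, and the difference was 0.24 ± 0.09 (SE) (unadjusted p = 0.0334, adjusted p = 0.604, limma). Saa1 lost its place at an unadjusted p of 0.05 when arrays were not centred, although the difference was then larger, at 0.50. Saa3, the form that macrophages and other cells outside the liver make, had -1.47, -3.35, -2.60 and -2.26 in SDHD-ESR and -2.01, -1.38, -2.86 and -2.57 in +/-. These groups overlapped, with SDHD-ESR replicate 2 below every +/- array, and the difference of -0.22 (95% interval -1.29 to 0.85) was small beside their spread. Saa4, the form made constitutively, had -0.04, -0.10, -0.18 and 0.34 in SDHD-ESR and -0.08, -0.50, -0.58 and 0.42 in +/-, near the pool on all arrays and with overlap. Messenger RNAs of Saa1 and Saa2 are near-identical in sequence, and how far the 2 features tell them apart was not tested.

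The promoters of Saa1 and Saa2 are shown because the pair moved by such different amounts. Both run from 250 bases before the start of the gene to 50 after it and come from RefSeq (GRCm38.p6), 5′ to 3′ on the gene's strand, Saa1 at chr7:46742931-46743230 (minus strand) and Saa2 at chr7:46751583-46751882 (plus strand). Capitals mark matches, on either strand, to the C/EBP motif TTGCNNAA and to the NF-kappa B motif.
Saa1: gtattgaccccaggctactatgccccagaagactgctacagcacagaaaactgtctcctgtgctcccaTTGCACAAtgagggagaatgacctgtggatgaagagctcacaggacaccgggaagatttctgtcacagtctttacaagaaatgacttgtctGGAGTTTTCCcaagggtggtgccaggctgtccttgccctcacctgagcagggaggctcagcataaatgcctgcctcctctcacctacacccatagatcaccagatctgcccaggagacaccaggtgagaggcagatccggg
Saa2: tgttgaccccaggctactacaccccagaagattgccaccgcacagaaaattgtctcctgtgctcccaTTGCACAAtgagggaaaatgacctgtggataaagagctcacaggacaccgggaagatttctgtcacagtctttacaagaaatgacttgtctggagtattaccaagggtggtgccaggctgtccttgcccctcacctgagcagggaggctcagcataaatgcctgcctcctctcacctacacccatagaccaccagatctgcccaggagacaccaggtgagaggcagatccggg
Aligned over 301 columns, the promoters had 287 bases in common (95.3%) and 2 gap columns. Both held a C/EBP match, TTGCACAA, at like distances before the start (182 bases in Saa1 and 183 in Saa2). Only Saa1 held an NF-kappa B match, GGAGTTTTCC, and a match or its absence in this window says nothing of what binds there.

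Fibrinogen, the precursor of fibrin, is built of 3 chains coded by the neighbouring genes Fga, Fgb and Fgg. Fgb, the beta chain, had -0.54, -1.49, -1.67 and -0.73 in SDHD-ESR, against -2.72, -3.81, -2.47 and -2.12 in +/-. All SDHD-ESR arrays lay above all +/- arrays, while both groups stayed below the pool, at 46.4% of it in SDHD-ESR and 14.6% in +/-. The difference was 1.67 ± 0.41 (SE), or 3.19-fold (unadjusted p = 0.00427, adjusted p = 0.459, limma), with 2.25 on slide 1 and 1.10 on slide 2.

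Fga, the alpha chain, behaved differently relative to the pool. Its log2 ratios were 2.02, 2.05, 0.45 and 0.47 in SDHD-ESR, against -0.01, 0.13, 0.06 and 0.17 in +/-. The +/- arrays sat at the pool level, and the SDHD-ESR arrays fell into a pair near 2 on slide 1 and a pair near 0.5 on slide 2. The difference was 1.16 ± 0.41 (SE), or 2.23-fold (unadjusted p = 0.0244, adjusted p = 0.584, limma). It was 1.97 on slide 1 and 0.35 on slide 2, and a test of the difference between slides, chosen after the slides were seen to differ, gave an unadjusted p of 3.68e-05 and an adjusted p of 0.185 (limma). The 2 Fga features gave differences of 0.90 and 1.42.

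Fgg, the gamma chain, split the slides further. It had 3.32, 2.51, -1.68 and -0.90 in SDHD-ESR, against -0.99, -1.37, -0.40 and -0.43 in +/-. On slide 1 both SDHD-ESR arrays lay far above every +/- array, and on slide 2 both lay below the +/- arrays of that slide. The slide differences were 4.10 and -0.88 (difference between them, unadjusted p = 0.000109, adjusted p = 0.241, limma), so the pooled difference of 1.61 ± 1.13 (SE) does not describe either slide.

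The fibrinogen promoters are printed because these 3 neighbours moved by different amounts and on different slides. They are RefSeq sequences of the same span and build, Fga at chr3:83025903-83026202 (plus strand), Fgb at chr3:83049814-83050113 (minus strand) and Fgg at chr3:83007474-83007773 (plus strand). Capitals mark matches on either strand to TTCNNNGAA, the motif of STAT proteins, to CTGGGAA, the core of the IL-6 response element, and to the C/EBP motif.
Fga: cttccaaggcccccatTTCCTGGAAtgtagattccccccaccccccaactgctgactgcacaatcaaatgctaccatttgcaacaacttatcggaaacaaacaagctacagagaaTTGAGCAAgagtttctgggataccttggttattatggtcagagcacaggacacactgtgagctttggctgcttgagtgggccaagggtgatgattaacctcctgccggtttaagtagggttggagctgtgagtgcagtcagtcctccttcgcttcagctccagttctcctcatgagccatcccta
Fgb: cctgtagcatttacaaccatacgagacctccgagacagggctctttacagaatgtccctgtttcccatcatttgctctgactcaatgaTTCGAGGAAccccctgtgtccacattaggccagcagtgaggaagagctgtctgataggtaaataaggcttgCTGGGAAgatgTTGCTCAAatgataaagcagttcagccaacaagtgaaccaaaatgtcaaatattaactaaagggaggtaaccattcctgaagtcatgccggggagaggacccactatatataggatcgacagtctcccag
Fgg: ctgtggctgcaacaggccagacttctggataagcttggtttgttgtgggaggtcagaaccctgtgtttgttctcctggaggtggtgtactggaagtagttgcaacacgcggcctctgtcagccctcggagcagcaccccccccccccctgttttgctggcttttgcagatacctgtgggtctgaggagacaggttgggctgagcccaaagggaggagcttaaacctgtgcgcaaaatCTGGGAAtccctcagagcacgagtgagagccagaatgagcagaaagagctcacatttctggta
Fgb held 1 match to each of the 3 motifs, with the STAT match TTCGAGGAA 162 bases before the start. Fga held a STAT match, TTCCTGGAA, 234 bases before the start and a C/EBP match, and Fgg held only CTGGGAA, 13 bases before the start. No match of 1 motif overlapped a match of another.

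RefSeq promoters were matched for 25 of the 30 measured members, and the matches are a description of these windows. TTCNNNGAA lay in 6 of the 25 genes (24.0%), beside 8.3% of 32851 mouse promoters of 300 bases. CTGGGAA lay in 5 of the 25, beside 11.1% of all, TTGCNNAA in 10 (40.0%, beside 10.8%) and the NF-kappa B motif in 10 (40.0%, beside 26.8%). Of the members of the set that were higher at an unadjusted p of 0.05, Fga, Fgb, Hamp and Itih4 held the STAT motif. Saa1, Saa2 and Nfkbia held other motifs but not this one, and the promoters of Stat3 and Osmr held none of the 4 motifs. Hp and Cebpd had no promoter to match. The STAT motif also lay in Apcs and Steap4, whose differences did not reach that p.

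Haptoglobin (Hp) and hemopexin (Hpx) bind free hemoglobin and free heme in plasma. Hp had -0.28, -0.21, -1.70 and -0.97 in SDHD-ESR, against -1.64, -1.57, -1.48 and -2.44 in +/-. SDHD-ESR replicate 3 lay within the +/- range and the other SDHD-ESR arrays above it, for a difference of 0.99 ± 0.37 (SE), or 1.99-fold (unadjusted p = 0.0311, adjusted p = 0.599, limma). Hpx had -3.15, -2.37, -1.57 and 0.13 in SDHD-ESR, against -2.72, -2.85, -3.43 and -2.36 in +/-. Here the SDHD-ESR arrays of slide 2 were the high ones, with replicate 4 at the pool level, and those of slide 1 lay among the +/- arrays. Slide 1 gave a difference of 0.03 and slide 2 one of 2.18, for 1.10 ± 0.66 (SE) in all (unadjusted p = 0.136, limma). Without SDHD-ESR replicate 4 it was 0.48.

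Hepcidin (Hamp) is the hormone that closes the iron exporter ferroportin, and its gene is a known target of IL-6 through STAT3 in liver. Its log2 ratios were 0.76, 0.17, -1.02 and -0.09 in SDHD-ESR, against -0.83, -0.88, -1.00 and -0.75 in +/-. The 4 +/- arrays lay within a narrow band, SDHD-ESR replicate 3 fell just below that band, and the other SDHD-ESR arrays lay above it (difference 0.82 ± 0.34 (SE), 1.77-fold, unadjusted p = 0.0445, adjusted p = 0.622, limma). The Hamp promoter is given because it held a single match, the STAT motif TTCTTGGAA, 97 bases before the start, marked in capitals in the RefSeq sequence at chr7:30943980-30944279 (minus strand).
Hamp: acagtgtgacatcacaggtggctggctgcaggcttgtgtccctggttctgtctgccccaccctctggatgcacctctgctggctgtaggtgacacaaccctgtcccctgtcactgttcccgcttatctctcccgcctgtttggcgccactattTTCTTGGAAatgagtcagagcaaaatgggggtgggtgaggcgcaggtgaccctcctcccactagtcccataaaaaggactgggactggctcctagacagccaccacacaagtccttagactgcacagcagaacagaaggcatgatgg
Steap4, a metalloreductase that takes part in iron and copper uptake, had -1.45, -0.08, -0.91 and 0.15 in SDHD-ESR and -1.00, -1.38, -0.67 and -0.96 in +/-, with overlap and a difference of 0.43 ± 0.36 (SE).

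Among the protease inhibitors and matrix-binding proteins, Itih4 was higher in SDHD-ESR and its relative Itih3 was not. Itih4, an inter-alpha-trypsin inhibitor heavy chain that is an acute phase protein in several species, had -0.56, -0.42, -1.47 and -0.39 in SDHD-ESR, against -1.21, -1.60, -1.87 and -1.68 in +/-. SDHD-ESR replicate 3 lay within the +/- range and the others above it, for a difference of 0.88 ± 0.27 (SE), or 1.84-fold (unadjusted p = 0.0123, adjusted p = 0.532, limma). Slide 1 (0.91) and slide 2 (0.85) gave like differences, but the 2 features of the gene disagreed in size, at 0.23 and 1.53. Itih3, another heavy chain that links to hyaluronan, had -0.95, -0.66, -0.95 and -0.10 in SDHD-ESR and -0.36, -0.36, -0.63 and -0.47 in +/-, with overlap and a difference of -0.21 ± 0.20 (SE).

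The orosomucoids Orm1 and Orm2, plasma glycoproteins that bind drugs and lipids, ran against most of the set. Orm1 had -2.76, -1.73, -2.05 and -0.64 in SDHD-ESR and -1.60, -0.66, -1.39 and -2.05 in +/-. Orm2 had -2.45, -2.19, -2.11 and -0.79 in SDHD-ESR and -1.35, -0.86, -1.16 and -2.36 in +/-. Both lay below the pool on all 8 arrays with wide overlap between groups, and differences of -0.37 ± 0.48 (SE) and -0.45 ± 0.45 (SE) were not larger than the spread between arrays. They rested on single arrays: over left-out arrays Orm1 ran between -0.76 (without SDHD-ESR replicate 4) and -0.05 (without SDHD-ESR replicate 1), and Orm2 between -0.82 (without SDHD-ESR replicate 4) and -0.27 (without +/- replicate 2), with no unadjusted p of 0.05 or less. Orm1 and Orm2 are close copies, so their features may share signal. The 6 secreted proteins that remain are Lbp, which presents bacterial lipopolysaccharide, the pentraxins Apcs and Crp, which bind microbes and damaged cells, Lrg1, a leucine-rich glycoprotein, and the protease inhibitors Serpina3n and A2m. Their differences ran between 0.06 for A2m and 1.24 for Crp, all with an unadjusted p above 0.05 and overlap between groups. The Crp difference rested on +/- replicate 3, at -4.21, and was 0.41 without that array. Serpina3n was measured on 3 of the 4 +/- arrays, and its difference of 0.44 ± 0.71 (SE) was 1.63 on slide 1 and -0.97 on slide 2.

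**Figure D2:**
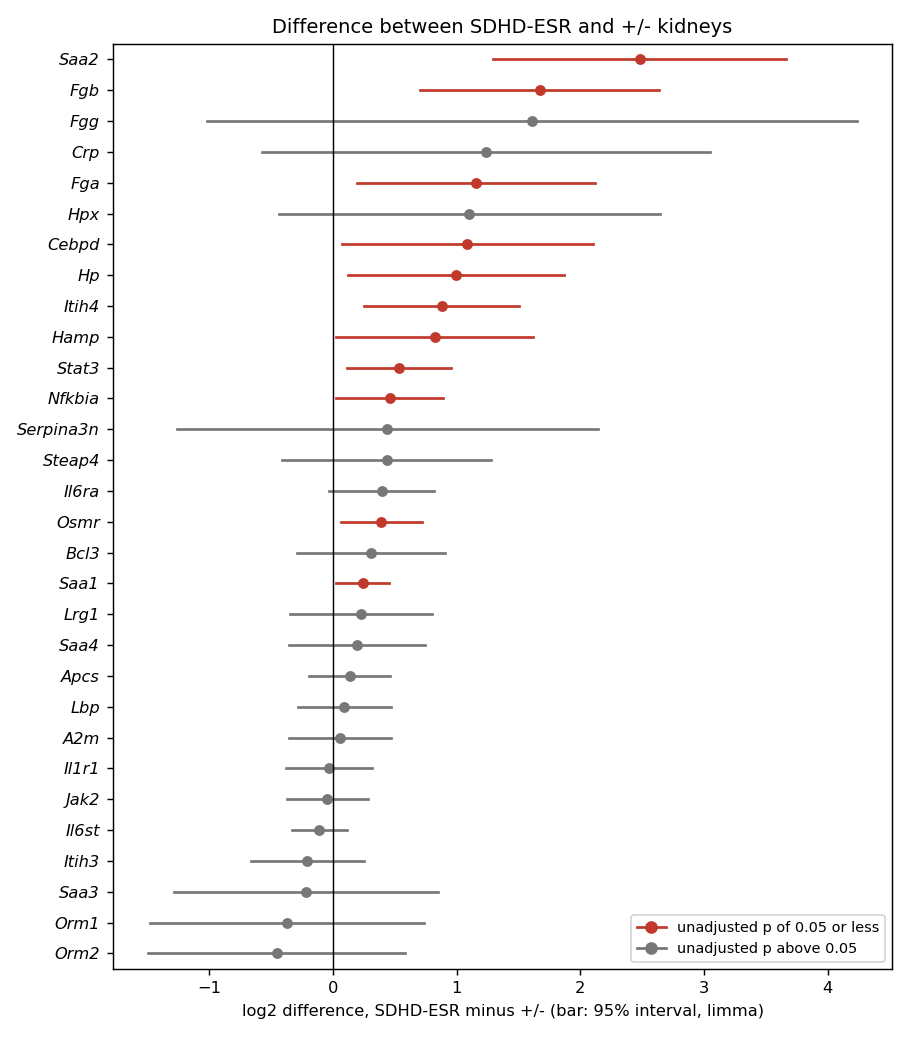
Fitted log2 difference, SDHD-ESR minus +/-, of the 30 measured genes with its 95% interval from limma (x axis), from the most positive to the most negative. Red marks the 11 genes whose unadjusted p was at most 0.05; all of them lie to the right of 0, and none passed adjustment over all 20476 genes.

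Of the receptors and the kinase, Osmr was higher in SDHD-ESR and the shared chain gp130 was not. Osmr, the oncostatin M receptor, had 0.38, 0.22, 0.06 and -0.13 in SDHD-ESR, against -0.13, -0.52, -0.17 and -0.21 in +/-. The groups did not overlap, although SDHD-ESR replicate 4 and +/- replicate 1 nearly touched, and the difference was 0.39 ± 0.14 (SE), or 1.31-fold (unadjusted p = 0.0244, adjusted p = 0.584, limma). Il6ra, the chain that binds IL-6 itself, had 0.63, 0.92, 0.25 and 0.18 in SDHD-ESR, against 0.35, 0.00, 0.06 and -0.01 in +/-. SDHD-ESR arrays of slide 1 lay above all others, those of slide 2 within the +/- range, and the difference was 0.39 ± 0.18 (SE) (unadjusted p = 0.0655, limma). Il6st, which codes for gp130, differed by -0.11 ± 0.10 (SE), Il1r1, the receptor of interleukin-1, by -0.03 ± 0.15 (SE), and Jak2, a Janus kinase, by -0.05 ± 0.14 (SE). For these 3 genes all values ran between -0.04 and 0.62, and the groups overlapped.

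The transcription regulators included Stat3, the gene with the most features. Its log2 ratios, as means over 11 features, were 0.85, 0.67, 0.37 and 0.04 in SDHD-ESR, against 0.03, -0.24, 0.02 and -0.01 in +/-. Slide 1 held the higher SDHD-ESR arrays, replicate 4 barely cleared the +/- arrays, and the difference was 0.53 ± 0.18 (SE), or 1.45-fold (unadjusted p = 0.0193, adjusted p = 0.551, limma). Of the 11 features, 10 share 1 RefSeq transcript and gave differences between 0.55 and 0.64, each at an unadjusted p of 0.05 or less when fitted alone. These 10 read the same RNA samples with values close together on each array, so they count as 1 result. The mean over 11 features rests mostly on them. The only other feature, named for a second Stat3 transcript, gave -0.06 (unadjusted p = 0.876, limma).

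Cebpd, the C/EBP protein that inflammation induces, had 1.38, 1.80, 0.27 and -0.17 in SDHD-ESR, against -0.50, -0.12, 0.03 and -0.48 in +/-. Both SDHD-ESR arrays of slide 1 lay well above all others, replicate 4 lay within the +/- range, and the difference was 1.09 ± 0.43 (SE), or 2.13-fold (unadjusted p = 0.0385, adjusted p = 0.611, limma). Nfkbia, the inhibitor that NF-kappa B induces against itself, had 0.69, 0.78, 0.10 and 0.12 in SDHD-ESR, against -0.09, 0.15, 0.01 and -0.21 in +/-. Its SDHD-ESR arrays of slide 1 were likewise the highest, those of slide 2 lay below +/- replicate 2, and the groups had a difference of 0.46 ± 0.19 (SE) (unadjusted p = 0.0408, adjusted p = 0.615, limma). Bcl3, a nuclear member of the same inhibitor family, differed by 0.31 ± 0.26 (SE) with overlap.

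Slides held 2 arrays of each group, and the differences were more positive on slide 1 for 18 of the 30 members (60.0%), close to the 54.6% of all genes. The median member difference was 0.55 on slide 1 and 0.23 on slide 2, where all genes had 0.03 and -0.01. Within slide 1 alone, 14 of 30 members were higher at an unadjusted p of 0.05, against 5.68% of genes, and 2 (Orm2 and Itih3) were lower, against 4.59%. Within slide 2 alone, 2 of 29 were higher (Saa2 and Fga), against 3.35% of genes, and 0 were lower, against 2.70% (limma, 2 arrays against 2, a fit added after the data were seen). The slide differences themselves differed at an unadjusted p of 0.05 for 5 members (Fga, Fgg, Stat3, Cebpd and Nfkbia), against 8.20% of 18623 genes measured on all arrays, and for none after adjustment (limma). All 5 had the larger difference on slide 1. The labels number the arrays of each slide, with SDHD-ESR as arrays 3 and 4 and +/- as arrays 1 and 2 on both, so position and group cannot be told apart.

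**Figure D3:**
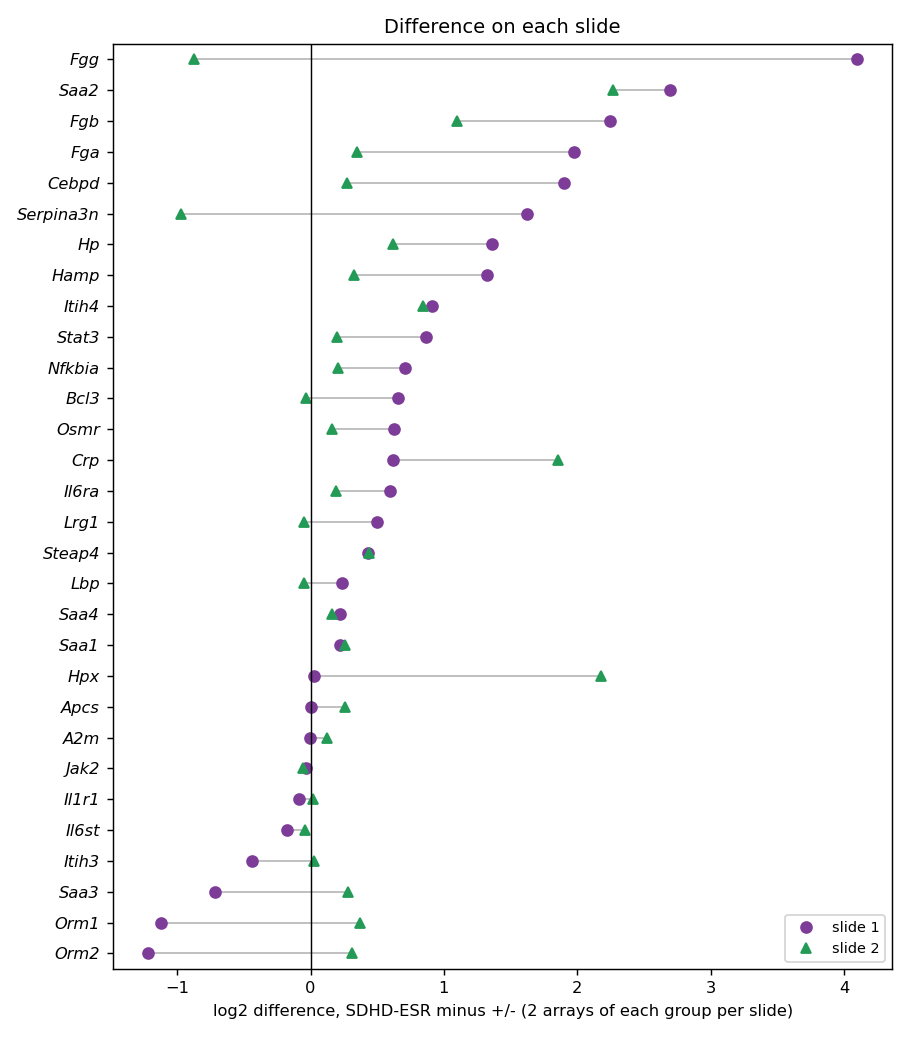
Log2 difference, SDHD-ESR minus +/-, on slide 1 (circles) and slide 2 (triangles), each from 2 arrays per group, for the 30 measured genes (y axis). Fgg has the widest gap, with 4.10 on slide 1 and -0.88 on slide 2, whereas Saa2, Itih4 and Saa1 have like values on both.

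Among transcripts of liver, Alb and Ahsg followed another order of arrays. The mean of the hepatocyte markers, Alb and Ahsg included, had the same 2 highest arrays, but not each single marker did. Albumin (Alb), the main plasma protein of hepatocytes, had -3.51, -3.29, -1.57 and 0.06 in SDHD-ESR, against -3.62, -3.26, -3.79 and -2.53 in +/-, and the liver glycoprotein Ahsg had -3.73, -3.20, -2.05 and -0.46 in SDHD-ESR, against -3.69, -3.39, -4.32 and -2.71 in +/-. Both showed the order seen for Hpx, with SDHD-ESR replicate 4 highest, replicate 3 next, and no gap between groups on slide 1, where Alb differed by 0.04 and Ahsg by 0.07. On that slide Fga, Fgg and Cebpd had their largest differences. Of the other hepatocyte markers, Uox had a like order (0.03 on slide 1 and 1.69 on slide 2), Apoh ran the opposite way (0.92 on slide 1 and -0.88 on slide 2), Apoc3 was higher on both (0.91 and 0.28), and Ttr and Tat differed by less than 0.1 on both slides. Of 15 measured hepatocyte markers, Alb and Ahsg included, 2 were higher (Apoc3 and Uox) and 1 lower (Proz) at an unadjusted p of 0.05. Their means per array were -0.80, -0.81, -0.59 and -0.12 in SDHD-ESR, against -0.79, -0.72, -0.82 and -0.65 in +/-. SDHD-ESR replicate 4 was again highest and replicate 3 next. These means include Alb and Ahsg, so they are not a separate sign of that order, and means without both were not taken. The differences of the hepatocyte markers were more positive on slide 1 for 4 of the 15, beside 54.6% of all genes. Of 12 neutrophil markers 1 was higher (Retnlg, by 1.89), with array means between -0.80 and -0.06 in SDHD-ESR and between -0.94 and -0.59 in +/-. Of 12 macrophage markers none passed in either direction, with array means between -0.86 and -0.52 in SDHD-ESR and between -0.65 and -0.17 in +/-. Among 8 measured tubular injury markers, 0 were higher and 1 lower at an unadjusted p of 0.05, against 4.00% and 3.80% of all genes. Spp1 was listed but not measured. The list did not hold Lcn2, which was higher in SDHD-ESR and is given with the acute phase genes below. Kidney tubule markers had 1 of 12 higher and 0 lower. Their array means were 0.19, 0.18, -0.08 and -0.33 in SDHD-ESR, against 0.074, 0.099, 0.002 and -0.095 in +/-. Differences were more positive on slide 1 for 11 of these 12 and for 7 of the 8 injury markers. The part of any of these cells in the member differences was not tested.

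**Figure D4:**
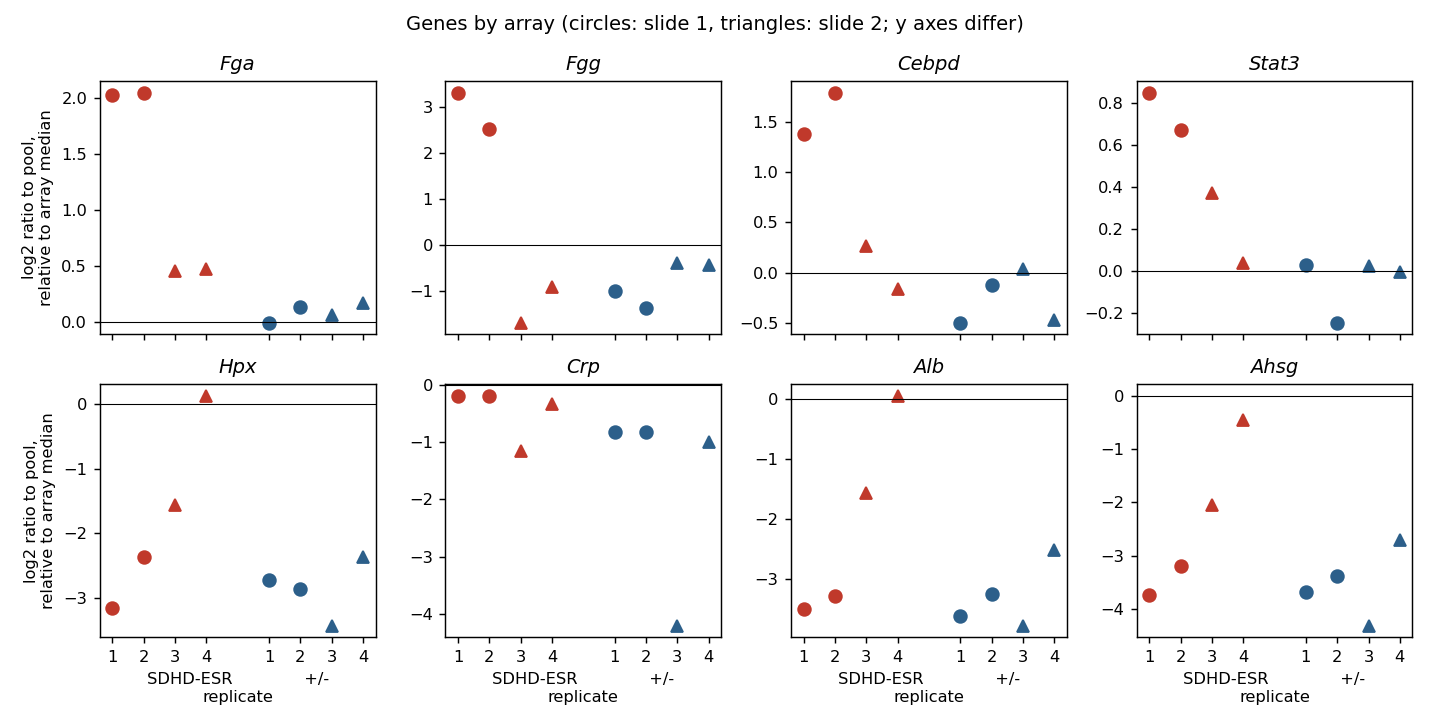
Log2 ratio to the pool, relative to the array median (y axis, own scale per gene), on each array (x axis, SDHD-ESR replicates 1 to 4 left of +/- replicates 1 to 4; circles slide 1, triangles slide 2). Fga, Fgg and Cebpd are high on SDHD-ESR replicates 1 and 2, while Hpx, Alb and Ahsg are high on SDHD-ESR replicates 3 and 4. Crp holds 1 low +/- value, at -4.21. Other hepatocyte markers are not drawn, and some of them, such as Apoh and Apoc3, had the larger difference on slide 1.

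Each group was also set against the pool of 8 +/+ mice, which is 1 RNA sample shared by both comparisons, so its own spread is left out. In SDHD-ESR, 3 members were above the pool (Fga, Il6ra and Stat3), against 16.5% of all genes, and 9 were below (Saa1, Saa2, Saa3, Hpx, Fgb, Orm1, Orm2, Itih3 and Itih4), against 7.88% of all genes (adjusted p of 0.05 or less, limma). In +/-, 0 members were above the pool, against 11.5% of all genes, and 11 were below (Saa1, Saa2, Saa3, Hp, Hpx, Fgb, Orm1, Orm2, Itih4, Hamp and Steap4), against 5.97% of all genes. Fga stood at 237% of the pool in SDHD-ESR (adjusted p = 0.0224), Il6ra at 141% and Stat3 at 140%, beside 106%, 107% and 96.6% in +/-. The lowest in +/- after Saa2 were Hpx, at 30.0% in SDHD-ESR and 13.9% in +/- (adjusted p = 0.0134 in +/-), and Fgb. Alb, beside them, stood at 23.7% in SDHD-ESR and 10.2% in +/-, and Ahsg at 19.5% in SDHD-ESR and 8.68% in +/-; the part of liver RNA in the pool was not tested. Without centring, only Saa2, Saa3 and Fga passed in SDHD-ESR and only Saa2 in +/-. The count of 12 in SDHD-ESR was 6 without SDHD-ESR replicate 1 and 6 without replicate 2, and the count of 11 in +/- was 7 without +/- replicate 1, 3 or 4.

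The study's joint criteria combine both kinds of comparison: an adjusted p of 0.05 for SDHD-ESR and the pool, and 0.05 without adjustment for SDHD-ESR and +/-. They were met by 6 members, Saa1, Saa2, Fga, Fgb, Stat3 and Itih4, and by 4.20% of all genes. Of these, Fga and Stat3 stood above the pool in SDHD-ESR, and Saa1, Saa2, Fgb and Itih4 stood below it in SDHD-ESR and farther below in +/-. The count was 2 without SDHD-ESR replicate 1, 2 without SDHD-ESR replicate 2 and 2 without centring.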

How the data were processed

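Test RNA was labelled with Cy5 and the pool with Cy3 (200 ng each) on Agilent arrays, and the authors processed the scans in Multi-Experiment Viewer. The authors describe log ratios, but 9.03% of the deposited values were whole numbers of up to 65024, so the deposited columns as they stand were classed as a score of mixed content. The whole numbers were set to missing, and the rest of the deposited values were read as log2 ratios. How background and arrays were normalized upstream is not given in the sources used here. Feature numbers did not match the platform, and positions were placed by a scanner grid inferred from the values, under which repeated spots of an accession gave like values (intraclass correlation 0.741 over 376 accessions, against -0.006 for the plain numbers). Every gene assignment rests on this grid, for which no key was available, and the likeness of repeated spots is not a separate check of it. The sign was turned so that Sdhd fell, and each array was centred on its median. Features of a gene measured on the most arrays were averaged. All 20476 genes with at least 3 values per group entered limma 3.58.1 (R 4.3.3) with group means, two-sided tests and Benjamini-Hochberg adjustment at 0.05. The fit was also run on simulated data with planted changes, and the share of these that it recovered is not reported here. The number of arrays limits the precision. Replicates are arrays of different mice, as far as the labels tell. Alternatives were centring, quantile normalization, slide or replicate blocks, single features, other filters, robust moderation, left-out arrays and the methods' t-test. Slide fits were added after seeing the data. Member genes, lists and the rule for genes with values on every array (unadjusted p of 0.05 between groups, adjusted p of 0.05 against the pool, all serum amyloid A and fibrinogen genes) were chosen with earlier results of these data known. Promoters are from RefSeq; the 5 measured members without a match are not shown.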

Additional observations from a re-analysis of the deposited data

Results flagged for a closer look

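A single array stood far from the 3 others of its group in 7 of 59 groups of 4 values, where its gap to the nearest array took a share of the group's range above Dixon's 95% critical value. Chance gives about 1 in 20. In SDHD-ESR, replicate 3 was low for Itih4 (-1.47, the others at -0.56 or above) and for Crp (-1.16, the others at -0.34 or above), and replicate 1 was high for A2m (0.18, the others at -0.35 or below). In +/-, replicate 1 was low for Saa1 (-1.56, the others at -1.47 or above), replicate 2 for Stat3 (-0.24, the others at -0.01 or above), replicate 3 for Crp (-4.21, far below the others) and replicate 4 for Hp (-2.44, the others at -1.64 or above). Without +/- replicate 2 the Stat3 difference between SDHD-ESR and +/- was 0.47 and missed an unadjusted p of 0.05 (limma), as did that of Hp without +/- replicate 4, at 0.77.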

How the results depend on the processing

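Of 11 members at an unadjusted p of 0.05, Saa2, Fgb and Itih4 kept it with any 1 array left out, but with 1 feature per gene in place of their mean Itih4 and Fga missed it, as did Saa1 after quantile normalization, without centring and with the replicate block. Stat3 missed it without +/- replicate 2, Hp without SDHD-ESR replicate 1 or 2 or +/- replicate 4, Fga without SDHD-ESR replicate 1 or 2 or +/- replicate 1, and Osmr without SDHD-ESR replicate 1 or 2 or +/- replicate 2. Cebpd, Nfkbia, Saa1 and Hamp missed it without SDHD-ESR replicate 1 and without at least 3 of the +/- arrays. The count ran between 5 and 13 over left-out arrays (7 were lost without SDHD-ESR replicate 1, 6 without replicate 2), was 7 by the methods' t-test, and was 16 within slide 1 and 2 within slide 2. The count after adjustment was 0 under every setting run. Against the pool, 12 in SDHD-ESR became 3 without centring and ran between 6 and 12 over left-out arrays; 11 in +/- became 1 without centring and ran between 7 and 11; the joint count of 6 became 2 without centring and ran between 2 and 6. Same-numbered arrays correlated between -0.01 and 0.06 in their deviations from group means; SDHD-ESR replicates 1, 2 and 4 were nearest to their own number and replicate 3 to number 4, so the numbers were not taken to pair arrays, and a fit with the replicate block gave 10, 8, 4 and 3 for these counts. Without centring, the median over all genes was 0.27 and that of the members 0.65, and 3.57% of all genes were higher and 0.244% lower, beside 4.00% and 3.80%. Saa3 (0.044), Il6st (0.15), Il1r1 (0.23), Jak2 (0.22) and Itih3 (0.054) then changed sign; the cause was not tested. The median ran between 0.27 and 0.46 over left-out arrays. Saa3 (-0.53 to 0.094), Il1r1 (-0.11 to 0.10), Jak2 (-0.13 to 0.046), Lbp (-0.012 to 0.19), Serpina3n (-0.10 to 0.92) and A2m (-0.080 to 0.14) changed sign with 1 array left out. In all, 282 of 297 single-member values kept their sign, leaving out the blocks, which do not move a balanced difference. Signal over background was not given, so dim features could not be told from bright ones.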

Other observations

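Genes around the set on the same pathway were described from lists drawn up with earlier results of these data known, at an unadjusted p of 0.05 in the same limma fit (log2 difference ± SE, SDHD-ESR minus +/-), beside 4.00% of all genes higher and 3.80% lower. Of 12 measured gp130 ligands and receptors, 2 were higher in SDHD-ESR, the cytokines Clcf1 (0.56 ± 0.19) and Ctf1 (0.25 ± 0.10), and the median difference was 0.00. Il6 itself had -1.51, -0.83, -2.24 and -2.20 in SDHD-ESR, against -1.69, -1.55, -0.33 and -0.75 in +/-, below the pool on all arrays, with overlap. It was 0.45 higher on slide 1 and differed by -1.68 on slide 2 (difference between slides, unadjusted p = 0.00142, adjusted p = 0.424, limma), which the pooled difference does not describe, at -0.62 (unadjusted p = 0.183, limma). Of 15 kinases, STAT proteins and feedback inhibitors, 3 were higher: Cish (1.52 ± 0.38) and Socs2 (1.24 ± 0.25), inhibitors known as targets of STAT5, and the kinase Jak3 (0.22 ± 0.08). Socs3, the inhibitor that STAT3 induces, had 0.76, 0.28, -0.09 and -0.20 in SDHD-ESR, against -0.06, -0.31, -0.50 and -0.18 in +/-, a difference of 0.45 ± 0.22 (SE; unadjusted p = 0.0772, limma), with its highest value on SDHD-ESR replicate 1.

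Among 16 STAT3 target regulators and kinases, 4 were higher and none lower: Nfil3, a bZIP repressor (1.20 ± 0.33, adjusted p = 0.496, limma), Maff, a small Maf protein (1.06 ± 0.40), Myc, the growth regulator (0.75 ± 0.29), and Klf6, a zinc-finger factor (0.40 ± 0.15). Of 22 genes of IL-1, TNF and NF-kappa B signalling only Ikbkb, an I kappa B kinase, was higher (0.37 ± 0.10), and Tnf (-0.01) and Il1b (0.05) lay near 0. A list of 23 measured genes was drawn up as other positive acute phase genes. Of these, 2 were higher, the iron-siderophore binder Lcn2 (0.56 ± 0.19) and the pentraxin Ptx3 (0.94 ± 0.35, 3 SDHD-ESR arrays). Lower were 2, Itih1 (-0.90 ± 0.33) and Itih2 (-0.64 ± 0.09), heavy chains of inter-alpha-trypsin inhibitor. Whether Itih1 and Itih2 belong among positive acute phase genes was not checked, so their fall is not read as a positive gene going down. Itih2 had -0.58, -0.57, -0.51 and -0.37 in SDHD-ESR, against 0.04, 0.19, 0.02 and 0.25 in +/-, without overlap, opposite in direction to its relative Itih4 (adjusted p = 0.227, limma). Of 11 negative acute phase genes, whose liver expression falls in inflammation, only Apoa1 passed, and it was higher in SDHD-ESR (0.77 ± 0.31).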
